A study of Mus musculus with 9 samples.

Results

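The cytosolic ribosome is built from ribosomal RNA and from a set of ribosomal proteins, and the messenger RNAs of these proteins were examined here in mouse cortex at E16.5, an embryonic stage. The genes were taken by symbol, as *Rps* or *Rpl* followed by a number and at most a single letter a, x, y or l, with *Rpsa*, *Rplp0*, *Rplp1*, *Rplp2*, *Rpl7l1*, *Rpl22l1* and *Rpl36al* added. Symbols of pseudogenes and of the S6 kinases were not taken. This gave 77 of the 14670 genes in the table, 31 of the small and 46 of the large subunit. All 77 were above 5 CPM (read counts scaled to library size) in each of the 9 libraries.

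Small-subunit proteins surround the site where messenger RNA is decoded, and large-subunit proteins surround the site of peptide bond formation and the exit tunnel of the new chain. Nearly every ribosomal protein is present in a single copy per ribosome, and the genes, which lie on many chromosomes, are transcribed in parallel. Their messenger RNAs carry a 5′ terminal oligopyrimidine (TOP) tract, a stretch of C and T that begins at the transcription start and places their translation under the control of the kinase mTORC1.

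RNA was sequenced from microdissected cortex in 3 groups of 3 libraries, namely *Fzd3* -/- mutants, *Celsr3* -/- mutants and controls labelled +/+. Mutants of both genes were kept on a mixed C57Bl/6 and CD1 background. The methods of the study describe the controls as littermates that were wild type or heterozygous. *Fzd3* and *Celsr3* encode membrane proteins of the planar cell polarity family, a Frizzled receptor and a seven-pass cadherin. Control and *Fzd3* mutant libraries were numbered 1 to 3, and *Celsr3* mutant libraries 1, 2 and 4. The methods count 3 of each genotype and, for animal work as a whole, 3 animals or more, while no label ties a library to an embryo, so that p-values measure the spread between these libraries. The libraries held between 39857305 (control 3) and 69600589 (*Celsr3* mutant 4) reads on the listed genes, and a value of 3 reads corresponded to 0.0427 to 0.0752 CPM, which covers counting error only. Every ribosomal protein gene was far above that level.

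As a check of the labels, the targeted genes came first. Control libraries had 196, 243 and 214 CPM of *Celsr3*, and libraries labelled *Celsr3* mutant had 122, 139 and 118 CPM. The latter were all lower, with no overlap (log2 fold change -0.78, s.e. 0.0910, limma adjusted p = 0.00180). Of *Fzd3*, control libraries had 58.0, 67.7 and 46.9 CPM and libraries labelled *Fzd3* mutant 46.5, 39.8 and 59.6 CPM. These ranges overlapped (log2 fold change -0.24, s.e. 0.147, limma adjusted p = 0.240), so that the level of *Fzd3* RNA did not check the *Fzd3* labels. The mutant allele is described as a deletion of exon 3, whereas values are listed per gene and not per exon. Markers of cortical projection neurons were abundant in every library, with *Dcx* at 1994, 1852 and 2028 CPM in the libraries labelled *Fzd3* mutant, and none of the 4 markers of choroid plexus was in the table.

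Ribosomal protein messenger RNAs were among the most abundant in control cortex. Their control means ran from 34.0 CPM for *Rps27l* to 1202 CPM for *Rpl4*, with a median of 419 CPM that exceeded the control means of 97.9% of all listed genes. Summed over the 77 genes, the controls held 36656, 35870 and 36148 CPM, which was 3.60% ± 0.0502 (SD, n = 3) of the column total. Control libraries also differed little among themselves in these genes: the coefficient of variation over the 3 controls had a median of 3.25% for ribosomal protein genes and of 6.46% for all listed genes. The latter are mostly far less abundant, and other genes of like abundance were not compared.

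Levels of different genes were compared as CPM per kilobase of coding sequence. The median gene was at 974 CPM per kb in the controls, and the quartiles lay at 764 and 1160, so that the middle of the distribution was narrow. The highest level per coding length was that of *Rpl41*, the shortest ribosomal protein with 75 bases of coding sequence, at 5588 CPM per kb, followed by *Rpl39* (1864), *Rps29* (1727), *Rps24* (1651) and *Rps15a* (1606). For messages this short, the untranslated part of the transcript adds reads that the coding length does not count. At the other end stood *Rpl7l1* (105), *Rps27l* (135), *Rpl22l1* (180) and *Rpl36al* (215), all of which are second copies of another ribosomal protein gene, and *Rpl29* (219). Next came *Rps2* (229), *Rpl26* (301), *Rps27* (378) and *Rps18* (420), for which near-identical copies were also listed, as described further on.

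**Figure D1:**
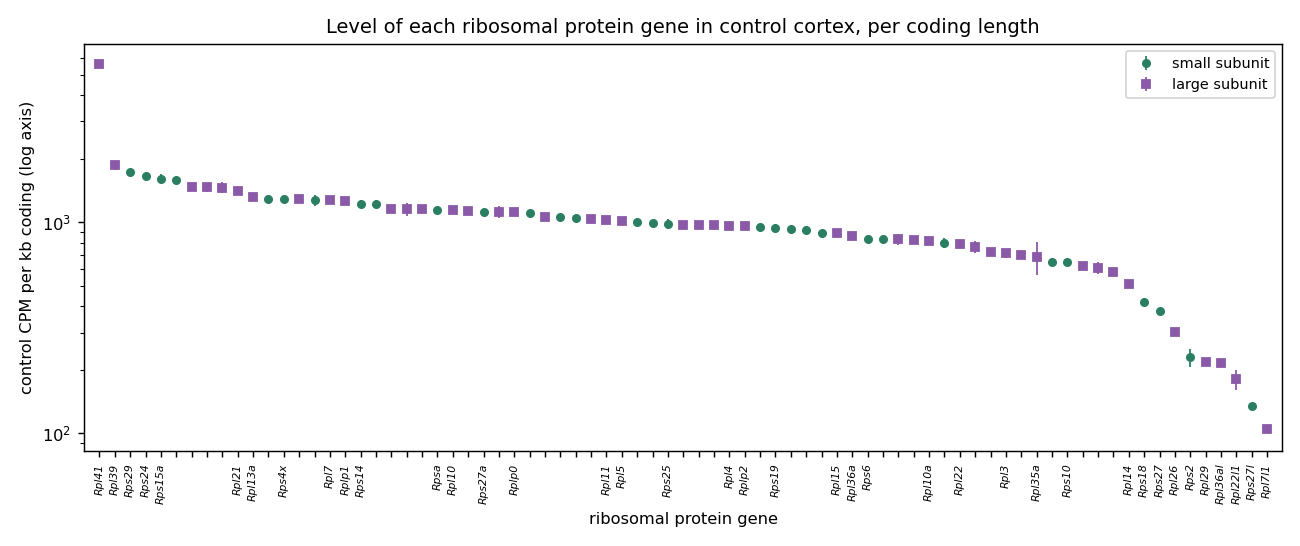
Control level of each of the 77 ribosomal protein genes in CPM per kilobase of coding sequence, on a log axis. Points are means of 3 control libraries, bars are ± SD, and the values run from 105 (*Rpl7l1*) to 5588 (*Rpl41*) around a median of 974. Labels are given for genes named by rule or added.

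Paralogs were far below their partners. *Rpl22*, an RNA-binding large-subunit protein, was at 788 CPM per kb in the controls, against 180 for *Rpl22l1*, and their transcripts were 74.6% identical over 299 aligned bases. *Rpl36a* was at 863 CPM per kb and *Rpl36al* at 215, with 87.7% identity over 332 bases. The gap between *Rpl7* (1271) and *Rpl7l1* (105) was the widest among these pairs. *Rps27*, at 378 CPM per kb, was above *Rps27l* at 135, and shared 76.4% of 254 bases with it.

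The sequence at the transcription start was read because these genes changed together, as described below, and because TOP tracts begin there. RefSeq starts on GRCm38.p6 were matched for 57 of the 77 genes, with 67 start entries in all. In a window of 30 bases, from 10 bases before to 20 bases after the start, 23 of the 67 entries (34.3%) held a run of at least 8 C or T on the coding strand, against 11.2% of all 32851 entries. Runs of at least 8 A or G, the same feature on the other strand, were found in 3 entries (4.48%), against 13.3% of all. The letters CTCTTT stood in 7 entries (10.4%) on the coding strand, against 1.02% of all entries, and in 0 on the other strand, against 0.980% of all. In each of these genes CTCTTT lay inside the longer run. The windows of 10 genes, *Rpl27a* for its long run and 9 that the results turn on, are given here 5′ to 3′, with the longest run of C and T in capitals; 10 bases lie before the annotated start and 20 in the first exon.
Rpl27a: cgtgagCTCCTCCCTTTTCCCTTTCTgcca
Rpl15: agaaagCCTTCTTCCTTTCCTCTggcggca
Rpl13a: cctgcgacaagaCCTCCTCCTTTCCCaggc
Rps10: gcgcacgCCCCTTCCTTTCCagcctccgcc
Rps6: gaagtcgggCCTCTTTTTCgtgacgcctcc
Rpl14: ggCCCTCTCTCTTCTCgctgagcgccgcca
Rplp0: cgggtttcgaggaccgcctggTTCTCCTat
Rpsa: ttatttaaggacgtcaTTTCCggccgcccg
Rps4x: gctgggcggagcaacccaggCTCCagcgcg
Rps2: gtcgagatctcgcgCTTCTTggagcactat

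These windows lie at chr7:109519185-109519214 on the plus strand (*Rpl27a*), chr14:18270967-18270996 on the minus strand (*Rpl15*), chr7:45128726-45128755 minus (*Rpl13a*), chr17:27635225-27635254 minus (*Rps10*), chr4:86857348-86857377 minus (*Rps6*), chr9:120571507-120571536 plus (*Rpl14*), chr5:115559457-115559486 plus (*Rplp0*), chr9:120127756-120127785 plus (*Rpsa*), chrX:102189372-102189401 minus (*Rps4x*) and chr17:24720053-24720082 plus (*Rps2*). *Rpl27a* carried the longest run, with 20 bases. *Rpl15* had 17 and *Rpl13a* 14. In *Rplp0*, *Rpsa*, *Rps4x* and *Rps2* no run reached 8 bases in this window, which says only that these letters are not within it. The annotated start can differ from the start used in cortex.

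Ribosomal protein messages were lower in *Fzd3* mutants. Of the 77 genes, 45 (58.4%) were lower than in controls past the limma threshold (adjusted p under 0.05), where 14.8% of all listed genes were lower. Just 2, *Rps2* and *Rpl29*, were higher, against 15.0% of all genes, and 30 did not pass in either direction. The shift was small and alike in size across genes: the median log2 fold change was -0.14, with quartiles of -0.18 and -0.11, while the quartiles of all listed genes were -0.13 and 0.16. After the columns were rescaled to 1000000 the median was -0.13, and with size factors from genes outside the set it was -0.14. In tissue, fewer cells of a type with much ribosomal protein RNA and less of this RNA per cell cannot be told apart.

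The fall was visible in every *Fzd3* mutant library. Relative to the control mean of each gene, the median gene stood at log2 values of -0.14, -0.14 and -0.17 in *Fzd3* mutant libraries 1, 2 and 3, and at 0.02, -0.02 and -0.01 in the controls. In the same order 71, 70 and 69 of the 77 genes were below their control mean in the mutants. All 3 *Fzd3* mutant libraries lay below all 3 controls for 58 of the genes (75.3%), as they did for 22.2% of all listed genes. They lay above all controls for 3, and the share of all listed genes that did so was not counted. Summed levels were 32789, 33203 and 31955 CPM in *Fzd3* mutants, a change of -9.87% from the control mean, and 3.28% ± 0.0750 of the column total (SD, n = 3).

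**Figure D2:**
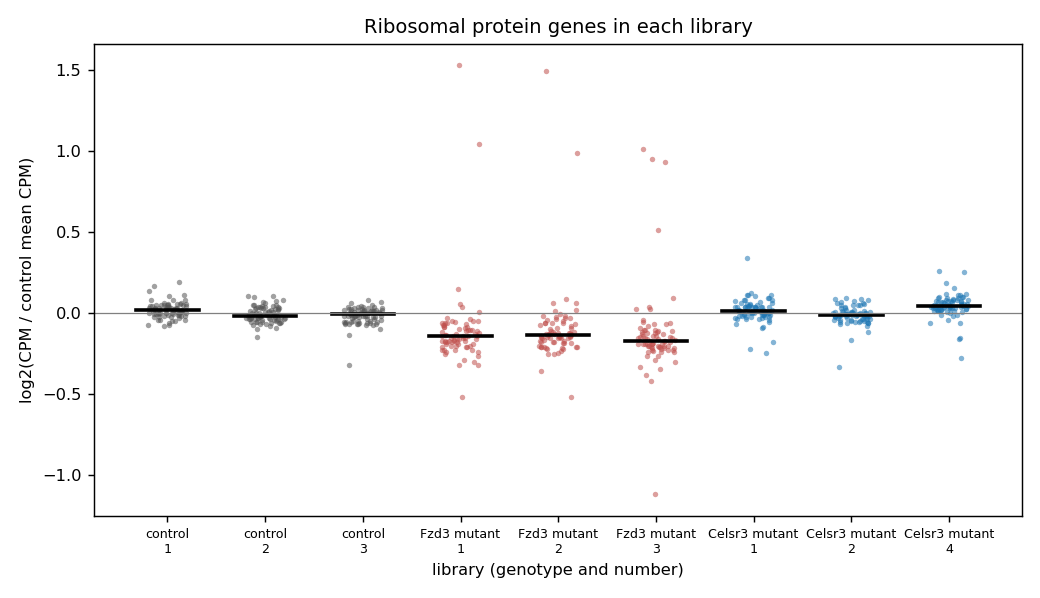
Log2 ratio of CPM to the gene's control mean for each of the 77 ribosomal protein genes (points) in each of the 9 libraries, with the median as a black bar. The bars of the 3 *Fzd3* mutant libraries lie at -0.14, -0.14 and -0.17, and those of the other 6 libraries between -0.02 and 0.05.

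Both subunits took part. In the small subunit 17 of 31 genes were lower and 1 was higher, and in the large subunit 28 of 46 were lower and 1 was higher, with a median log2 fold change of -0.14 in each. Genes on 19 chromosomes were in the set. The 23 genes with a run of at least 8 C or T at an annotated start had a median of -0.13, and the 34 genes with an entry and no such run -0.14. Of the 30 genes with an entry that were called lower, 10 had such a run, as did 13 of the other 27.

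**Figure D3:**
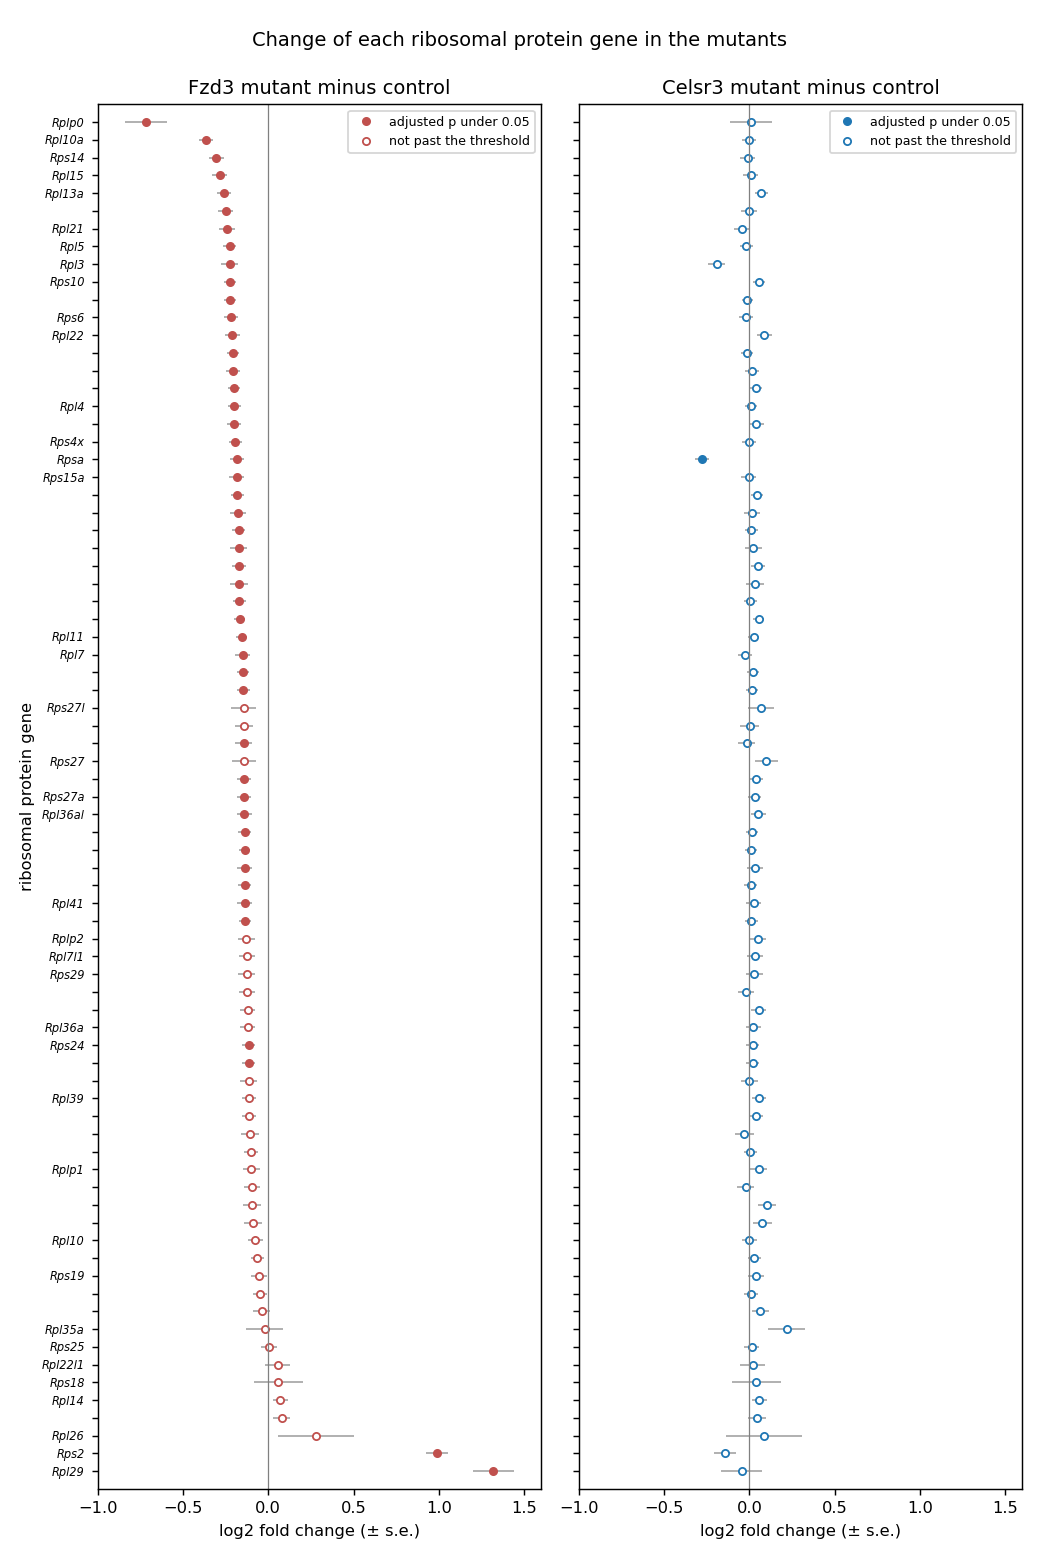
Log2 fold change of each of the 77 ribosomal protein genes in *Fzd3* mutants (left) and *Celsr3* mutants (right) against controls, with bars of ± 1 standard error and filled points for limma adjusted p under 0.05. On the left 45 filled points lie below 0 and 2 above, and on the right the only filled point is *Rpsa*. Labels are given for genes named by rule or added.

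The stalk recruits translation factors to the large subunit. *Rplp0*, the gene of its base, had values of 1048, 1043 and 1086 CPM in controls, 739.9, 739.6 and 489 CPM in *Fzd3* mutants and 1087, 1025 and 1085 CPM in *Celsr3* mutants. All *Fzd3* mutant libraries were below all others, and library 3 was lower again than the others of its group (log2 fold change -0.72, s.e. 0.125, limma adjusted p = 0.00175). This was the lowest fold change among the 77 genes taken alone. *Rplp1*, an acidic protein that binds *Rplp0* protein, was at 435, 421 and 434 CPM in controls and 413, 420.1 and 373 CPM in *Fzd3* mutants. The ranges were apart, yet the difference did not pass (log2 fold change -0.10, limma adjusted p = 0.153). Its partner *Rplp2* was at 338, 325 and 325 CPM in controls and 309, 316 and 279.8 CPM in *Fzd3* mutants, with no overlap and again short of the threshold (log2 fold change -0.13, limma adjusted p = 0.0746).

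After *Rplp0*, *Rpl10a* had the lowest value. *Rpl10a* encodes the protein of the flexible arm near which spent transfer RNA leaves the ribosome. It was at 511, 533 and 533 CPM in controls, 422, 411 and 393 CPM in *Fzd3* mutants and 532, 505 and 539 CPM in *Celsr3* mutants. *Fzd3* mutants were apart from the other groups, which overlapped (log2 fold change -0.36, s.e. 0.0416, limma adjusted p = 0.000144). *Rpl13a*, which also takes part in translational control outside the ribosome, went from 798, 813 and 780.4 CPM in controls to 683, 683 and 635 CPM in *Fzd3* mutants. Every mutant library was below every control (-0.26, s.e. 0.0405, limma adjusted p = 0.000937, on the log2 scale).

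*Rpl3* and *Rpl4* encode proteins of the large-subunit core, near the catalytic centre and along the exit tunnel. *Rpl4* was at 1215, 1178 and 1215 CPM in controls and 1062, 1061 and 1017 CPM in *Fzd3* mutants. Mutants were lower in each library (log2 fold change -0.20, limma adjusted p = 0.00278), and no near-identical copy of *Rpl4* was listed. *Rpl3* was at 825, 851 and 911 CPM in controls, 748, 767 and 699 CPM in *Fzd3* mutants and 727, 768 and 771 CPM in *Celsr3* mutants. Here the controls were above both mutant groups, which overlapped each other, and only the *Fzd3* difference passed (log2 fold change -0.23, limma adjusted p = 0.00657, and -0.19, adjusted p = 0.375, for *Celsr3*). With its 4 near-identical copies added, the *Rpl3* sum of *Fzd3* mutants did not pass (log2 fold change -0.11, limma adjusted p = 0.111). Those copies summed to 159, 66.9 and 71.9 CPM in controls, 151, 159 and 142 CPM in *Fzd3* mutants and 278, 156 and 168 CPM in *Celsr3* mutants.

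*Rpl5* and *Rpl11* join the smallest ribosomal RNA in a particle that binds the p53 regulator Mdm2 when ribosome assembly is disturbed. *Rpl5* was at 930.1, 878 and 890.3 CPM in controls and 750.3, 777 and 779.8 CPM in *Fzd3* mutants. *Rpl11* was at 545, 541 and 548 CPM in controls and 488, 486 and 492 CPM in *Fzd3* mutants. Both were lower in each *Fzd3* mutant library than in any control (log2 fold changes -0.23 and -0.16, limma adjusted p = 0.00143 and 0.00465). *Rpl22* was at 313, 297 and 298 CPM in controls, 248, 259 and 278 CPM in *Fzd3* mutants and 324, 321 and 320.2 CPM in *Celsr3* mutants. The *Fzd3* libraries were lowest and did not overlap the controls (log2 fold change -0.21, limma adjusted p = 0.00510). Its paralog *Rpl22l1* was at 74.1, 63.7 and 60.0 CPM in controls and 67.8, 69.9 and 67.1 CPM in *Fzd3* mutants, with overlap (log2 fold change 0.06, limma adjusted p = 0.606); the sign of this value turned to -0.01 without control 3.

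Among small-subunit genes the lowest fold change was that of *Rps14*, a protein of the platform near the exit of messenger RNA. *Rps14* was at 554, 533 and 579 CPM in controls, 446, 466 and 438 CPM in *Fzd3* mutants and 549.7, 536 and 567 CPM in *Celsr3* mutants. The *Fzd3* libraries were apart from all others (log2 fold change -0.30, s.e. 0.0430, limma adjusted p = 0.000520). *Rps10*, which is ubiquitinated on collided ribosomes, was at 328, 326 and 307 CPM in controls and 272, 276 and 274 CPM in *Fzd3* mutants. The *Fzd3* mutant libraries lay within 5 CPM of each other and below every control (log2 fold change -0.22, limma adjusted p = 0.00125). *Rps6*, the substrate of the S6 kinases downstream of mTORC1, was at 639, 615 and 616 CPM in controls and 524, 550.5 and 533 CPM in *Fzd3* mutants. It was lower in each mutant library (log2 fold change -0.22, limma adjusted p = 0.00216), and the sum with its 6 near-identical copies had the same log2 fold change of -0.22.

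*Rps4x*, on the X chromosome, was at 1051, 979 and 1019 CPM in controls and 881, 895 and 891 CPM in *Fzd3* mutants, and *Rps15a* was at 652, 592 and 635 CPM in controls and 536, 566 and 549.7 CPM in *Fzd3* mutants. In both genes the groups were apart (log2 fold changes -0.19 and -0.18, limma adjusted p = 0.00426 and 0.00833). *Rpsa*, a small-subunit protein that was also described as a laminin receptor precursor, was at 1015, 991 and 1040.3 CPM in controls and 903, 902 and 874 CPM in *Fzd3* mutants. The difference passed with no overlap (log2 fold change -0.18, limma adjusted p = 0.00628).

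*Rps19*, mutated in Diamond-Blackfan anaemia more often than any other ribosomal protein gene, was at 414, 422 and 388 CPM in controls and 392, 391 and 393 CPM in *Fzd3* mutants. The ranges overlapped and the test was not passed (log2 fold change -0.06, limma adjusted p = 0.392). *Rpl10*, which joins the large subunit late in its maturation, was at 744, 711 and 737 CPM in controls and 698, 721 and 661 CPM in *Fzd3* mutants, with overlap (log2 fold change -0.08, limma adjusted p = 0.219). *Rps25*, needed for initiation on some viral messages, was at 383, 344 and 379 CPM in controls and 356, 373 and 378 CPM in *Fzd3* mutants, and the ranges again overlapped. *Rpl14* was at 342, 317 and 331 CPM in controls and 343, 345 and 352 CPM in *Fzd3* mutants, with each mutant library above each control, though short of the threshold (log2 fold change 0.07, limma adjusted p = 0.237). The 30 genes that did not pass ran from -0.14 (*Rps27l*) to 0.28 (*Rpl26*), and 24 of them were below 0.

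Calls of genes near the threshold were lost when any of several libraries was left out, while the fold changes kept their direction. *Rpl41* (414, 429.7 and 414 CPM in controls, 398, 379 and 367 CPM in *Fzd3* mutants, with a log2 fold change of -0.14) passed at a limma adjusted p of 0.0326. It did not pass without control 1 (0.0592), control 2 (0.104), *Fzd3* mutant 2 (0.0879) or *Fzd3* mutant 3 (0.0961), where the log2 fold changes were -0.15 to -0.11. *Rpl7* (1069, 978 and 1041 CPM in controls and 923, 933 and 926 CPM in *Fzd3* mutants, with a log2 fold change of -0.15, limma adjusted p = 0.0211) did not pass without control 1 (0.0811), control 3 (0.0518), *Fzd3* mutant 1 (0.0654) or *Fzd3* mutant 2 (0.0528), with values of -0.15 to -0.12. *Rps27a*, which is translated as a fusion to ubiquitin, was at 538, 514 and 522 CPM in controls and 468, 493 and 466 CPM in *Fzd3* mutants (-0.14, limma adjusted p = 0.0208) and did not pass without control 1 (0.0743), *Fzd3* mutant 1 (0.0753) or *Fzd3* mutant 3 (0.0556), with values of -0.13 to -0.12. *Rps24* (671, 647 and 659 CPM in controls and 594, 618 and 613 CPM in *Fzd3* mutants, with a log2 fold change of -0.12, limma adjusted p = 0.0340) lost its call without control 1 (0.103), control 3 (0.0640), *Fzd3* mutant 1 (0.123), 2 (0.0573) or 3 (0.0514), or *Celsr3* mutant 2 (0.0506), at -0.13 to -0.10. *Rpl36al* (70.3, 67.3 and 67.3 CPM in controls and 59.8, 61.5 and 64.6 CPM in *Fzd3* mutants, with a log2 fold change of -0.14, limma adjusted p = 0.0347) lost it without control 1 (0.110), control 2 (0.0609), *Fzd3* mutant 1 (0.126) or 2 (0.0925), or *Celsr3* mutant 2 (0.0528), at -0.15 to -0.11. In all 5 genes the mutant libraries were nonetheless below the controls. Conversely, *Rpl36a* passed without control 2 (-0.15, adjusted p = 0.0496), *Rpl39* without control 3 (-0.14, 0.0460) and *Rpl7l1* without control 3 (-0.16, 0.0337), against -0.12, -0.11 and -0.13 with all libraries.

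Near-identical copies were looked for because reads from a gene and from its processed pseudogenes can be assigned to either. Transcripts of the other listed genes were aligned to those of the 77, and 227 listed genes matched with at least 90% identity over at least 150 bases and 50% of the copy. Of these, 217 are annotated as pseudogenes. Copies existed for 62 of the 77 genes, whereas 15, among them *Rpl4*, *Rpl8*, *Rpl22* and *Rps9*, had none in the table. The copies summed to 5944 ± 202 CPM in the controls, 4966 ± 54.8 CPM in *Fzd3* mutants and 6191 ± 320 CPM in *Celsr3* mutants (SD, n = 3). In 10 genes the gene itself held under 80% of the sum of gene and copies over the 9 libraries, so that their values are uncertain. Those were *Rps2* (19.3%), *Rpl29* (26.2%), *Rpl26* (39.6%), *Rps27* (40.7%), *Rpl35a* (46.2%), *Rps18* (48.9%), *Rpl15* (54.2%), *Rpl21* (55.8%), *Rpl34* (56.9%) and *Rps6* (69.6%). Some of these shares differed by group: the share of *Rps2* was 13.9% in controls, against 33.0% in *Fzd3* and 13.0% in *Celsr3* mutants, and that of *Rpl29* was 15.7%, against 57.4% and 15.1%. Others hardly did, such as *Rps27* (40.3%, against 41.0% and 40.8%) and *Rps6* (69.8%, against 69.9% and 69.3%). In single groups *Rplp0* (77.6%) and *Rpl30* (79.3%) in *Fzd3* mutants and *Rpl3* (79.0%) and *Rpsa* (79.5%) in *Celsr3* mutants were also under 80%.

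Both genes called higher in *Fzd3* mutants were in that group. *Rps2*, a protein at the entry channel for messenger RNA, was at 221, 181 and 200.4 CPM in controls, 413, 399 and 382 CPM in *Fzd3* mutants and 177, 186 and 181 CPM in *Celsr3* mutants. Each *Fzd3* mutant library was above every other library (log2 fold change 0.99, s.e. 0.0630, limma adjusted p = 2.21e-06). Its 20 copies summed to 1296, 1235 and 1213 CPM in controls and 843, 756 and 827 CPM in *Fzd3* mutants, and this sum was lower in each mutant library. The copy *Rps2-ps13*, 99.2% identical to the gene, was at 301, 346 and 352 CPM in controls and 191, 184 and 185 CPM in *Fzd3* mutants. *Rps2-ps10* (99.4% identical) was at 295, 238 and 243 CPM in controls and 155, 143 and 149.9 CPM in *Fzd3* mutants. Both copies fell while the gene rose (log2 fold changes -0.83 and -0.79, limma adjusted p = 3.85e-06 and 2.77e-05). Not every copy did so: *Gm5921* (98.0% identical) was at 10.6, 11.7 and 10.5 CPM in controls and 23.6, 21.98 and 21.9 CPM in *Fzd3* mutants, and *Gm8225* (93.9%) at 21.6, 22.5 and 21.9 CPM and 29.5, 24.2 and 26.6 CPM (log2 fold changes 1.01 and 0.27, limma adjusted p = 1.92e-05 and 0.0232). Gene and copies together were at 1517, 1416 and 1414 CPM in controls and 1256, 1155 and 1209.6 CPM in *Fzd3* mutants, without overlap and in the direction of most other ribosomal protein genes (log2 fold change -0.26, s.e. 0.0451, limma adjusted p = 0.00139).

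*Rpl29*, a small protein of the large subunit, was at 107, 107 and 101 CPM in controls, 302, 295 and 202 CPM in *Fzd3* mutants and 99.96, 101 and 104 CPM in *Celsr3* mutants. It was higher in each *Fzd3* mutant library, and less so in library 3 (log2 fold change 1.32, s.e. 0.118, limma adjusted p = 3.12e-05). Its 18 copies summed to 569, 579 and 541 CPM in controls and 138, 124 and 332 CPM in *Fzd3* mutants, so that the library with the least *Rpl29* had the most copy signal. The most abundant copy, *Gm13841* (99.4% identical), was at 204, 207 and 202 CPM in controls and 26.4, 24.1 and 104 CPM in *Fzd3* mutants. Another copy, *Gm17669* (98.0% identical), moved the other way, from 0.385, 0.460 and 0.326 CPM in the controls to 12.3, 9.48 and 6.93 CPM. Gene and copies together were at 675, 686 and 642 CPM in controls and 441, 419 and 534 CPM in *Fzd3* mutants, lower in each library (log2 fold change -0.53, s.e. 0.0733, limma adjusted p = 0.000404). A copy of low abundance, *Rpl29-ps5*, was at 1.52, 2.53 and 1.71 CPM in controls and, in *Fzd3* mutants, at 0.0232, 0.0216 and 0.954 CPM, of which the first and second lie below the level of 3 reads. As a sum, *Rpl29* with its copies had the lowest value in the set.

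*Rplp0* showed the opposite arrangement. Its copies *Gm8730* and *Gm9625*, 98.7% and 97.4% identical, were at 14.2, 17.2 and 15.5 CPM (*Gm8730*) and 3.35, 3.43 and 3.41 CPM (*Gm9625*) in the controls. In *Fzd3* mutants *Gm8730* was at 119.9, 109.9 and 199 CPM and *Gm9625* at 35.7, 31.8 and 59.4 CPM, the highest values being in library 3, where *Rplp0* was lowest. *Celsr3* mutants had 15.6, 13.9 and 17.9 CPM and 2.97, 3.19 and 3.13 CPM of them, near the controls. Another copy, *Rplp0-ps1*, was also higher in *Fzd3* mutants, at 0.173, 0.328 and 0.0502 CPM in controls and 1.14, 1.23 and 1.66 CPM (log2 fold change 1.44, limma adjusted p = 0.000611). With the 4 copies added, *Rplp0* was at 1067, 1064 and 1106 CPM in controls and 899, 885 and 752 CPM in *Fzd3* mutants, still apart but with a smaller log2 fold change of -0.36 (s.e. 0.0623, limma adjusted p = 0.00160) in place of -0.72. In *Rpl15*, a protein of the large-subunit core at 539, 553 and 543 CPM in controls and 461, 464 and 419 CPM in *Fzd3* mutants, the copy *Gm8420* was at 0.0385 CPM or less in each control and *Celsr3* mutant, below the level of 3 reads, and at 3.60, 3.91 and 7.58 CPM in *Fzd3* mutants. *Rpl15* passed both alone (log2 fold change -0.28, limma adjusted p = 0.000866) and with its 7 copies (-0.20, adjusted p = 0.00428).

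**Figure D4:**
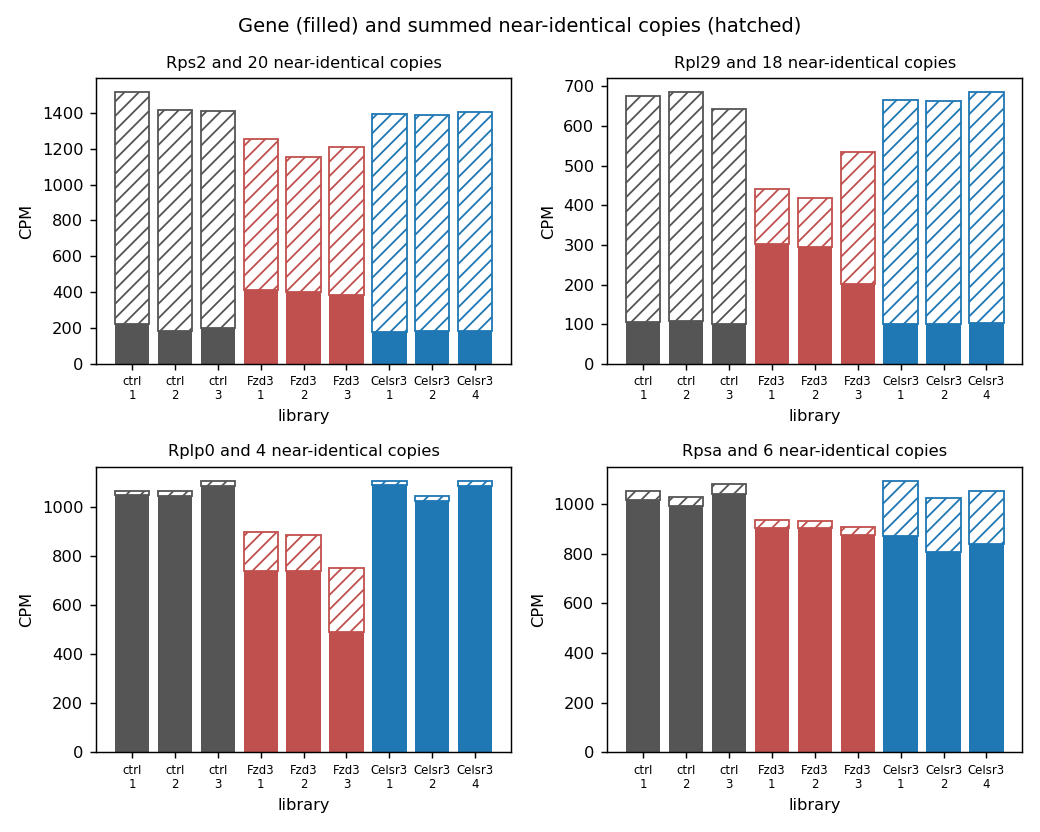
CPM of *Rps2*, *Rpl29*, *Rplp0* and *Rpsa* (filled) with the summed CPM of their near-identical copies stacked on top (hatched) in each of the 9 libraries. In *Fzd3* mutants the filled part is higher for *Rps2* and *Rpl29* while the whole bar is lower, and in *Celsr3* mutants the hatched part of *Rpsa* is higher while its whole bars overlap those of the controls.

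In some families a single library stood apart. *Rpl26*, known to bind p53 messenger RNA, was at 132, 132 and 123 CPM in controls and 117, 127 and 261 CPM in *Fzd3* mutants. Mutant library 3 was well above the other 8 libraries, which lay between 117 and 138 CPM. The *Rpl26* copy *Gm15772* (98.2% identical) was at 205, 218 and 109 CPM in *Fzd3* mutants, lowest in library 3, and the sums of *Rpl26* and its 3 copies were 331, 355 and 380.0 CPM, against 375, 358 and 376 CPM in the controls. *Rps18*, of the head of the small subunit, was at 198, 183 and 193 CPM in controls and 172, 169 and 274 CPM in *Fzd3* mutants, and the sums with its 3 copies were 432, 398 and 418 CPM in controls and 371, 369.6 and 367 CPM in *Fzd3* mutants. As sums, the *Fzd3* mutant libraries were alike and below each control (log2 fold change -0.17, limma adjusted p = 0.00761), while *Rps18* alone overlapped between groups. Library 3 of the *Fzd3* mutants was thus apart from its group in *Rplp0*, *Rpl29*, *Rpl26* and *Rps18*. Without it, 39 ribosomal protein genes were lower and 2 higher than in controls, and the median log2 fold change was -0.14.

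Copies also differed between libraries of a single group. The 16 copies of *Rpl21*, a large-subunit protein, summed to 343, 314 and 652 CPM in the controls, 539.0, 571.8 and 504.3 CPM in *Fzd3* mutants and 622, 324 and 622 CPM in *Celsr3* mutants. Controls 1 and 2 and *Celsr3* mutant 2 were low, and the other 6 libraries were higher. *Rpl21* alone was at 699, 669.8 and 645 CPM in controls and 545, 593 and 567 CPM in *Fzd3* mutants, without overlap (log2 fold change -0.24, limma adjusted p = 0.00350), but with its copies the difference was not passed (log2 fold change 0.01, limma adjusted p = 0.960). For *Rpl35a* the 8 copies summed to 303, 279 and 428 CPM in controls and 135, 269 and 283 CPM in *Celsr3* mutants. Control 3 had the highest copy sum and the lowest *Rpl35a* (259, 239 and 182 CPM in the controls), and *Celsr3* mutant 1 the lowest copy sum and the highest *Rpl35a* (287, 240.1 and 258 CPM in *Celsr3* mutants).

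Taken over the whole set, the sums kept the pattern of the genes. With each gene added to its copies, a comparison chosen after seeing the data, 48 of the 77 sums were lower in *Fzd3* mutants by limma and 0 were higher, and the median log2 fold change was -0.14. In that fit 4331 of all 14443 entries tested passed, counted in both directions together. Of the 45 genes lower alone, 42 were also lower as sums. Of the 67 genes that held at least 80% of their sum, 42 were lower and 0 were higher, and of the 15 genes without a copy 10 were lower, with a median of -0.15. Both counts are of genes taken alone, where 14.8% of all listed genes were lower and 15.0% higher. The sums ran from -0.53 (*Rpl29*) to 0.08. At an unadjusted p under 0.05, 56 genes were lower and 2 higher when taken alone, the latter being *Rps2* and *Rpl29*. The share of all listed genes at that cut was not counted, here or where such counts are given below.

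No such shift was seen in *Celsr3* mutants. Just 1 of the 77 genes, *Rpsa*, was lower by limma, where 0.177% of all listed genes were lower. None was higher, against 0.130% of all genes. At an unadjusted p under 0.05 the counts were 3 lower and 0 higher, and the share of all listed genes at that cut was not counted. The median log2 fold change was 0.02, and 56 of the 77 genes were above 0, while the quartiles of all listed genes were -0.05 and 0.05. Summed levels were 36416, 35609 and 36945 CPM, 0.272% above the control mean and 3.64% ± 0.0815 of the column total (SD, n = 3). Library 4 of this group had 174.8 CPM over the 5 listed markers of meninges and fibroblasts, where the other 8 libraries had between 10.5 and 21.04, with *Col3a1* as the most abundant; its part in the result was not tested. The counts without that library were 0 lower and 0 higher.

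*Rpsa* was at 1015, 991 and 1040.3 CPM in controls and 872, 807 and 839 CPM in *Celsr3* mutants. All mutant libraries were below all controls (log2 fold change -0.28, s.e. 0.0408, limma adjusted p = 0.0123). The difference did not pass without control 1 (limma adjusted p = 0.0612), control 3 (0.0568), *Celsr3* mutant 2 (0.0779) or *Celsr3* mutant 4 (0.0611), where the log2 fold changes were -0.28 to -0.25. Near-identical copies of *Rpsa* were higher in the same libraries. *Rpsa-ps10*, 99.3% identical to the gene and on chromosome 3, was at 17.0, 16.0 and 17.2 CPM in controls, 15.5, 13.7 and 12.5 CPM in *Fzd3* mutants and 173, 167 and 168 CPM in *Celsr3* mutants. No other copy of a ribosomal protein gene differed as much between *Celsr3* mutants and controls (log2 fold change 3.30, limma adjusted p = 2.18e-10). *Rpsa-ps2* (98.8% identical) was at 6.59, 7.36 and 6.65 CPM in controls and 29.8, 28.4 and 28.2 CPM in *Celsr3* mutants, and *Rpsa-ps9* at 4.07, 3.45 and 4.36 CPM in controls and 12.4, 12.6 and 11.5 CPM in *Celsr3* mutants. *Rpsa-ps5*, with 92.4% identity, was lower, at 3.81, 4.83 and 4.44 CPM in controls and 1.94, 2.50 and 1.99 CPM in *Celsr3* mutants. Summed with its 6 copies, *Rpsa* was at 1052, 1029 and 1079.6 CPM in controls and 1093, 1022 and 1053 CPM in *Celsr3* mutants, and the groups overlapped (log2 fold change 0.00, s.e. 0.0402). As sums, 0 of the 77 were lower and 0 higher in *Celsr3* mutants by limma, where 38 of all 14443 entries tested passed in either direction. In *Fzd3* mutants the *Rpsa* sum remained lower (935, 932 and 906 CPM, with a log2 fold change of -0.19, limma adjusted p = 0.00495).

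A similar copy was seen for *Rpl14*. *Rpl14* was at 342, 317 and 331 CPM in controls and 357, 327 and 347 CPM in *Celsr3* mutants, with overlap. Its copy *Rpl14-ps1*, on chromosome 7, was at 2.99, 2.69 and 3.49 CPM in controls and 8.32, 6.35 and 8.91 CPM in *Celsr3* mutants, higher in each (log2 fold change 1.23, limma adjusted p = 0.00191). By position, 7 of the 77 genes lie on chromosome 9 with *Celsr3*, namely *Rpl29* at 2.40 megabases from it, *Rpsa* at 11.3, *Rpl14* at 11.7, *Rps27l* at 41.9, *Rpl4* at 44.65, *Rplp1* at 46.9 and *Rps25* at 64.4. Of these, *Rpsa* alone passed in *Celsr3* mutants; *Rpl29*, the nearest, did not (log2 fold change -0.05, limma adjusted p = 1.00). On the chromosome of *Fzd3*, 14, the set has *Rps24* and *Rpl15*, 40.7 and 46.9 megabases away. Over all 227 copies, 50 (22.03%) were lower and 10 (4.41%) higher in *Fzd3* mutants, where 14.8% and 15.0% of all listed genes were, with a median log2 fold change of -0.16. In *Celsr3* mutants 2 (0.881%) were lower and 4 (1.76%) higher, against 0.177% and 0.130%, with a median of 0.00.

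The mutants were also compared directly, in the same fit, so that this comparison shares its libraries with the others. Of the 77 genes, 53 (68.8%) were lower in *Fzd3* than in *Celsr3* mutants, where 14.3% of all listed genes were lower, and 2 were higher, against 15.3%. With the replicate number as a block 17 were lower and 2 higher, in a fit that also called fewer of all listed genes. The median log2 fold change was -0.17. All *Fzd3* mutant libraries were below all *Celsr3* mutant libraries for 60 genes (77.9%), as they were for 22.6% of all listed genes. *Rplp0* had the lowest value (-0.72, s.e. 0.125, limma adjusted p = 0.00179), followed by *Rpl10a* (-0.36), *Rpl13a* (-0.33) and *Rpl22* (-0.30, adjusted p = 0.000822). This order depended on the copies: as sums *Rpl29* (-0.54) was lowest, followed by *Rpl10a* (-0.37) and *Rplp0* (-0.36, limma adjusted p = 0.00155). *Rpl13a* was at 832, 826 and 854 CPM in *Celsr3* mutants, all above the controls, so that its distance between the mutants was wider than that from the controls. *Rpsa* did not differ between the mutants past the threshold (log2 fold change 0.09, limma adjusted p = 0.121), and neither did *Rpl3* (-0.03, adjusted p = 0.648). As sums with copies, 56 of the 77 were lower and 0 higher, and the *Rpsa* sum was among those lower (-0.19, limma adjusted p = 0.00470). In the fit of sums 4325 of all 14443 entries tested passed between the mutants, counted in both directions together. At an unadjusted p under 0.05, 60 genes were lower and 3 higher when taken alone, and the share of all listed genes at that cut was not counted.

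Some ribosomal proteins have symbols outside the naming rule. Of these, *Fau*, *Rps3a1* and *Gnb2l1* were read singly, and such genes were not counted as a group. *Fau*, a fusion of a ubiquitin-like protein to a small-subunit protein, was at 298, 299 and 306 CPM in controls and 289.7, 267 and 252 CPM in *Fzd3* mutants. *Rps3a1* was at 885, 822 and 850.5 CPM in controls and 727, 757 and 746 CPM in *Fzd3* mutants. In both, the *Fzd3* mutant libraries were below the controls (log2 fold changes -0.16 and -0.20, limma adjusted p = 0.0251 and 0.00373). *Gnb2l1*, the symbol in the table for the small-subunit scaffold Rack1, was at 886, 878 and 902 CPM in controls and 747, 732 and 715 CPM in *Fzd3* mutants (a log2 fold change of -0.28, limma adjusted p = 0.000301).

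Other genes of the translation machinery were read from lists, to be set against the 14.8% of all listed genes that were lower in *Fzd3* mutants and the 15.0% that were higher. Counts at an unadjusted p under 0.05 have no such share beside them. Of 25 listed TOP genes outside the 77, 20 (80%) were lower and 0 higher in *Fzd3* mutants (21 lower and 0 higher at an unadjusted p under 0.05), with a median of -0.18. Among them was *Gas5*, a host of small nucleolar RNAs, at 421, 393 and 397 CPM in controls and 211, 215 and 194 CPM in *Fzd3* mutants, without overlap (log2 fold change -0.97, limma adjusted p = 8.44e-07). *Npm1*, a nucleolar chaperone of ribosome assembly on both this list and that of ribosome biogenesis, was at 855, 776 and 795 CPM in controls and 656, 676 and 655 CPM in *Fzd3* mutants (a log2 fold change of -0.29). Of 49 ribosome biogenesis genes 15 (30.6%) were lower and 0 higher (25 and 0 at an unadjusted p under 0.05). Genes of translation initiation were taken by the symbol *Eif* and a number, which takes in regulators of initiation besides the factors. Of these 51 genes, some of them also on the TOP list, 20 (39.2%) were lower and 3 higher. Mitochondrial ribosomal protein genes, which serve a separate ribosome, had 8 lower (10.7%, under the share of all genes) and 3 higher of 75, a median of -0.07. At an unadjusted p under 0.05 they had 17 lower and 3 higher, and 51 were below 0. Respiratory chain subunits had 8 lower (10.8%, also under the share of all genes) and 4 higher of 74, and aminoacyl-tRNA synthetases 5 lower (25%) and 1 higher of 20. At an unadjusted p under 0.05 the respiratory chain had 13 lower and 7 higher, and the synthetases 8 and 1. Of 23 mTOR and Myc regulators 3 (13.0%) were lower and 1, *Myc*, was higher (log2 fold change 1.15, limma adjusted p = 7.40e-05), with 15.0, 10.8 and 13.7 CPM in controls and 30.6, 30.6 and 27.1 CPM in *Fzd3* mutants. Of 11 genes of ribosome quality control and the p53 response 2 (18.2%) were lower and 1 higher. Leading changes past the threshold were those of *Noc2l* (-0.38) and *Ltv1* (-0.28) in ribosome biogenesis, *Mxd1* (-0.34) and *Mxi1* (-0.26) among Myc regulators, and *Qars* (-0.34) among synthetases. Among genes with *Eif* symbols they were *Eif2ak2* (-0.56), *Eif3b* (-0.26) and *Eif4ebp2* (-0.25). Of these, *Eif2ak2* and *Eif4ebp2* encode inhibitors of initiation and not initiation factors. *Trp53*, the gene of p53, was at -0.25, *Gcn1l1* at 0.24 and *Gigyf2* at -0.16. In *Celsr3* mutants 0 genes of these 8 lists passed by limma, and at an unadjusted p under 0.05 no list had more than 1 lower or 4 higher.

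**Figure D5:**
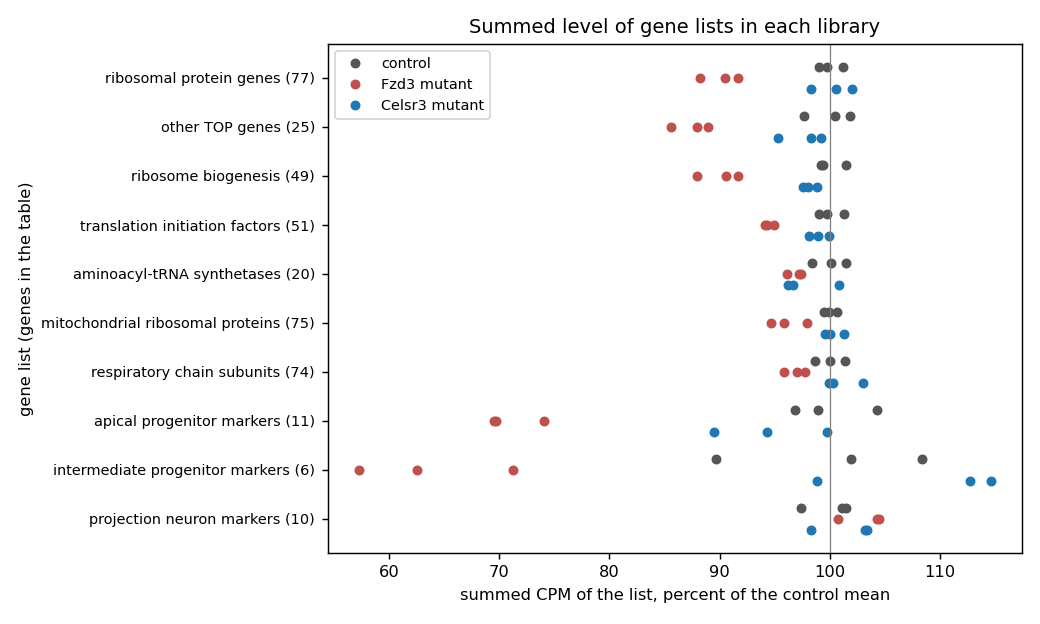
Summed CPM of gene lists in each of the 9 libraries (points), as a percentage of the list's control mean, with the number of listed genes in brackets. The translation initiation factors shown are the genes taken by an *Eif* symbol, regulators included. All lists shown except aminoacyl-tRNA synthetases and projection neuron markers are lower in all 3 *Fzd3* mutant libraries than in any other library, by the least in mitochondrial ribosomal proteins and respiratory chain subunits and by the most in the progenitor markers.

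Markers of progenitors were also lower in *Fzd3* mutants. Counts here too stand against 14.8% of all listed genes lower and 15.0% higher. Of 11 listed apical progenitor markers 8 were lower and 0 higher in *Fzd3* mutants, and their summed level was 1844, 1945 and 1805 CPM in controls, 1296, 1381 and 1299.9 CPM in *Fzd3* mutants and 1668, 1758 and 1860.2 CPM in *Celsr3* mutants, with *Fabp7* as the most abundant. *Mki67* (-0.81), *Top2a* (-0.79) and *Pax6* (-0.70) had the largest changes among them, though *Mki67* and *Top2a* mark cycling cells and not apical progenitors alone. All 6 intermediate progenitor markers were lower, with sums of 412, 439 and 363 CPM in controls and 232, 253 and 288 CPM in *Fzd3* mutants, and *Eomes* as the most abundant. Projection neuron markers had 5 lower (50%, above the share of all genes) and 2 higher (20%, near that share) of 10. Their sums were 7058, 7081 and 6800.4 CPM in controls and 7276, 7034 and 7293 CPM in *Fzd3* mutants, with *Dcx* as the most abundant. Microglia had 4 higher and 0 lower of 8 (sums 35.1, 41.4 and 39.1 CPM in controls and 63.2, 59.3 and 44.5 CPM in *Fzd3* mutants, *Csf1r* most abundant), and endothelium 3 higher and 0 lower of 6 (sums 94.7, 96.6 and 98.6 CPM in controls and 143, 136 and 125 CPM in *Fzd3* mutants, *Kdr* most abundant). None of the listed markers in these lists was at 0 in all libraries. Of interneuron, Cajal-Retzius and red blood cell markers, 0 of 8, 0 of 4 and 1 of 8 passed in *Fzd3* mutants by limma (0, 1 and 1 at an unadjusted p under 0.05), and of 3 thalamus and hypothalamus markers 2 were lower and 1 higher. The part of these cell types in the level of the ribosomal protein genes was not tested.

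Exons of 12 of the 77 genes overlap those of a gene on the opposite strand in the annotation, and use of strand in the counting is not stated in the sources used here, so that reads of these pairs cannot be told apart. The most abundant of these partners was *Tlcd1*, at a mean of 389 CPM over the 9 libraries, which shares 506 bases with *Rpl23a* (662 CPM). *Rps18* shares 156 bases with *Vps52* (104 CPM), *Rpl5* 953 bases with *Fam69a* (42.0 CPM) and *Rpl31* 420 bases with *Tbc1d8* (28.8 CPM). The others were *Rpl15*, *Rps28*, *Rpl12*, *Rpl35*, *Rpl32*, *Rpl28*, *Rpl18* and *Rps25*, with partners at means of 11.2 to 88.0 CPM.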

How the data were processed

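RNA of microdissected cortex at E16.5 was extracted with Trizol according to the labels and measured in 9 libraries, 3 from each of 3 genotypes. The authors deposited CPM values for 14670 genes, scaled per library by them before deposit, and genes of low expression had been left out. The submitters' processing notes name FastQC, TopHat, TopHat2, Bowtie, Cufflinks 2.1.1, edgeR 2.12 and the assemblies GRCm38 and GRCh37, and say neither how shared reads were assigned nor whether strand was used. The number of columns not used was 0. Whole multiples of the smallest step of each column gave 39857305 to 69600589 reads per library.

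Genes were tested in R 4.3.3 with limma 3.58.1 on log2(CPM + 0.5), with a trend of variance on abundance, in 1 fit of all 9 libraries. Two-sided p-values were adjusted over 14670 genes (Benjamini-Hochberg, threshold 0.05). Fold changes of genes with low values are understated by the added 0.5. Transcripts were aligned with BLAST 2.17.0, and matplotlib 3.10.9, pandas 2.3.3 and numpy 2.4.6 under Python 3.11.15 made tables and plots. Symbols were matched to GENCODE M21 for 14398 genes (13763 by symbol, 635 by an older symbol), which gave positions, coding lengths and transcripts for all 77 ribosomal protein genes.

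Members and lists were chosen with earlier results of these data known. Genes named in the text were the 10 largest changes past the threshold in each comparison, the 5 highest and 5 lowest control levels, genes with set roles, paralogs, 3 genes of each other list and at most 5 pseudogenes in each comparison. Results for 2 genes are not reported here. *Rpl26*, *Rps18*, *Rps25*, *Rpl35a*, *Rpl34*, *Rpl27a*, the genes without copies or with a gene on the other strand, and copies with Gm symbols were added after their values were seen, as was the summing of genes with their near-identical copies. Alternatives covered the added constant, a filter, scaling, a fit of only the compared groups, a replicate block, moderation of variances, transcript length and leaving out each library.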

Additional observations from a re-analysis of the deposited data

Results flagged for a closer look

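Ribosomal protein genes were named here because their change in *Fzd3* mutants differed from that in *Celsr3* mutants past the limma threshold in the direct comparison of the mutants. This held for 28 of the 35 ribosomal protein genes followed by rule, of which 26 were lower in *Fzd3* mutants. The rule took in the largest changes of this comparison, so the count was partly set by choice. Over all 77 genes 53 were lower and 2 higher, where 14.3% and 15.3% of all listed genes were. With the replicate number as a block 17 of the 77 were lower, and the calls lost among the genes followed are named in the next section. Values are log2 differences of *Fzd3* from *Celsr3* mutants. In the large subunit they were -0.72 for *Rplp0*, -0.36 for *Rpl10a*, -0.33 for *Rpl13a*, -0.30 for *Rpl22*, -0.29 for *Rpl15*, -0.21 for *Rpl4* and -0.21 for *Rpl5*. Further values were -0.20 for *Rpl21*, -0.19 for *Rpl36al*, -0.18 for *Rpl11* and -0.17 for *Rpl39*. In the small subunit *Rps14* was at -0.29, *Rps10* at -0.28, *Rps6* at -0.20, *Rps4x* at -0.19, *Rps15a* at -0.18 and *Rps27a* at -0.17. *Rps2* (1.13) and *Rpl29* (1.36) were higher in *Fzd3* mutants, and both turned negative when summed with their near-identical copies. As sums *Rplp0* was at -0.36, and *Rpl21* at -0.08 (limma adjusted p = 0.612), short of the threshold.

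In 9 of the 35 genes the call between the mutants was lost when any of 2 or more libraries was left out. The limma adjusted p without each is given here, with the range of log2 differences, all of which stayed below 0. *Rplp1* (-0.15) did not pass without *Fzd3* mutant 1 (0.0559) or 3 (0.108), or without *Celsr3* mutant 1 (0.103) or 4 (0.104), at -0.17 to -0.10. *Rplp2* (-0.18) did not pass without *Fzd3* mutant 3 (0.0598) or *Celsr3* mutant 1 (0.0720), at -0.15 to -0.13. *Rpl36a* (-0.14) failed without *Fzd3* mutant 1 (0.0719) or 3 (0.0946), or *Celsr3* mutant 1 (0.0914) or 4 (0.0961), at -0.15 to -0.11. *Rpl41* (-0.16) failed without *Fzd3* mutant 2 (0.0501) or *Celsr3* mutant 1 (0.0553), at -0.16 to -0.13. *Rpl7l1* (-0.16) was lost without *Fzd3* mutant 1 (0.0712) or 2 (0.0829), or *Celsr3* mutant 2 (0.0843) or 4 (0.0961), at -0.16 to -0.14. *Rpl7* (-0.13) was lost without control 3 (0.0505) and without any *Fzd3* mutant (0.114, 0.0938 and 0.0798) or *Celsr3* mutant (0.0917, 0.0560 and 0.143), at -0.15 to -0.11. *Rps24* (-0.13) was lost without *Fzd3* mutant 1 (0.0733) or *Celsr3* mutant 4 (0.0712), at -0.12 in both. For *Rps27* (-0.24) the libraries were *Fzd3* mutants 1 (0.0509) and 2 (0.0888) and *Celsr3* mutant 4 (0.0750), at -0.25 to -0.16. For *Rps29* (-0.16) they were *Fzd3* mutants 2 (0.0826) and 3 (0.114) and each *Celsr3* mutant (0.0541, 0.05001 and 0.139), at -0.18 to -0.12. *Rps27l*, not called with all libraries (-0.21), passed without *Fzd3* mutant 3 (0.0410), *Celsr3* mutant 1 (0.0485) or *Celsr3* mutant 2 (0.0437), at -0.26 to -0.25. With the trend of values on transcript length removed, *Rplp1* was at -0.07 (0.279), *Rps29* at -0.09 (0.203) and *Rps27* at -0.19 (0.0575), and none of the 3 passed.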

How the results depend on the processing

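The fall of ribosomal protein genes in *Fzd3* mutants kept its direction in every alternative. Of the 77 genes, 45 were lower than in controls, and between 33 and 44 when each library was left out in turn. Rescaled columns gave 39 and a fit of the 2 groups alone 40. The median of -0.14 lay between -0.15 and -0.13. *Rpsa*, the only gene lower in *Celsr3* mutants, was not called without moderation of variances (0 genes) or as a sum with its copies (0 genes), and leaving out each library gave between 0 and 1. In *Fzd3* against *Celsr3* mutants 53 genes were lower, and between 38 and 54 with a library left out.

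With the replicate number as a block (a paired fit), 33 genes were lower in *Fzd3* mutants than in controls, 0 in *Celsr3* mutants, and 17 in *Fzd3* than in *Celsr3* mutants, whose median moved from -0.17 to -0.14. Calls over all genes were also fewer in that fit, 3629 in *Fzd3* mutants against controls (2167 lower and 2199 higher without the block) and 2101 between the mutants (2099 and 2247). *Rplp1* was then at -0.12 and *Rps29* at -0.11 between the mutants (limma adjusted p = 0.241 and 0.257). *Rpl5* (-0.20, limma adjusted p = 0.0533), *Rps4x* (-0.17, 0.0713), *Rps6* (-0.18, 0.0726) and *Rpl36al* (-0.20, 0.0728) also lost that call. So did *Rpl21* (-0.19, 0.0768), *Rps15a* (-0.18, 0.0946), *Rps27a* (-0.14, 0.129) and *Rpl39* (-0.14, 0.137). The rest were *Rpl7*, *Rpl7l1*, *Rpl36a*, *Rpl41*, *Rplp2*, *Rps24* and *Rps27*, and all these values stayed below 0. Of the *Celsr3* mutants, only 1 and 2 share a number with other libraries. Same-numbered libraries had correlations between -0.20 and 0.19, and not every library correlated best with its own number. The highest correlation between groups, 0.192, was that of *Fzd3* mutant 1 with *Celsr3* mutant 1, which share a number. Control 2 and *Fzd3* mutant 3, which do not, had 0.188. With 3 libraries a group these values cannot show whether the numbers paired the libraries.

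Summing each gene with its near-identical copies, chosen after seeing the data, turned the sign of *Rps2* (to -0.26 against controls and -0.21 against *Celsr3* mutants), *Rpl29* (to -0.53 and -0.54) and *Rpl21* (to 0.00867, against controls), and moved *Rpsa* in *Celsr3* mutants to 0.00323. Signs of values that had not passed also turned, among them *Rps18* (from 0.06 to -0.17 in *Fzd3* mutants, now past the threshold) and *Rpl26* (from 0.28 to -0.06), and, between the mutants, *Rpsa* (from 0.09 to -0.19) and *Rps18* (from 0.02 to -0.22), both newly past it. The number of genes higher in *Fzd3* mutants went from 2 to 0 against controls and against *Celsr3* mutants. The cause was not tested.

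Over the 35 genes followed, 1714 of 1890 alternative values kept their direction and side of the threshold, 104 no longer passed, 7 newly passed, 59 changed sign from values that had not passed and 6 from values that had. The planned test of recovered reads with edgeR was not run, because each column had 23 to 66 values within 20 steps of 0 and 100 were needed. Depth did not limit these genes, all above 5 CPM, but reads shared with near-identical copies cannot be told apart, and 3 libraries a group give a poor estimate of spread. Batches, litters and the sex of the embryos are not in the labels, and their part was not tested.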
